A study of Mus musculus with 2 samples.

Results

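Tuft cells are rare chemosensory cells of the gut epithelium that carry parts of the taste transduction cascade, in which a G protein such as gustducin (Gnat3) and a phospholipase C (Plcb2) release calcium that opens the cation channel Trpm5. They are also known as an epithelial source of interleukin-25, which signals to group 2 innate lymphoid cells, and of leukotrienes and prostaglandins, which are made from arachidonic acid by lipoxygenases and cyclooxygenases. The transcription factor Pou2f3 is required for the lineage, and Chat, choline acetyltransferase, makes acetylcholine in these cells. The 10 genes described here are Pou2f3, the taste cascade genes Trpm5, Gnat3 and Plcb2, the cytokine gene Il25, the eicosanoid genes Alox5 (5-lipoxygenase), Alox5ap (the 5-lipoxygenase activating protein), Ptgs1 (cyclooxygenase-1) and Hpgds (hematopoietic prostaglandin D synthase), and Chat. They were chosen by symbol, and all 10 were among the 32285 genes counted.

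The study asked how ablation of FoxO1 in Neurog3-positive progenitors alters the cells that descend from them. Single-cell RNA-Seq was performed on Tomato-positive epithelial cells sorted from mouse small intestine. Both groups carried Neurog3Cre, a recombinase driven by the endocrine progenitor gene Neurog3, and a Rosa26 tdTomato reporter that marks the progeny of Cre-expressing cells. The WT library came from Neurog3Cre; Rosa26tdtomato mice, and the library labelled NFKO came from Neurog3Cre-FoxO1 f/f; Rosa26tdtomato mice, whose floxed FoxO1 alleles are the target of the same Cre. Each library pooled whole small intestines of 4 to 5 mice aged 4 to 6 weeks, so every tuft cell described here was one that had been red and sorted, not a sample of all intestinal tuft cells. With 1 library per group there was no replicate and no test between groups. Intervals are 95% and cover counting error only: exact Poisson for levels, Clopper-Pearson for shares of cells, and exact conditional binomial for ratios. Where 0 cells or UMIs were counted, the upper limit given is that of 3 counts.

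The WT library kept 3003 cells with a median of 16883 UMIs (unique molecular identifiers, each marking 1 captured transcript), and the library labelled NFKO kept 5292 cells with a median of 17039. The libraries shared 4 cell barcodes among kept cells. Foxo1, the targeted gene, was counted at 11.6 CPM (UMIs of a gene per 1000000 UMIs of the cells summed) in WT cells and 12.4 in cells labelled NFKO. Over all cells these counts therefore did not bear out the genotype label, although counting at the 3′ end need not see a deletion inside the gene. The paper itself reports a significant reduction of FoxO1 expression in sorted Tomato-positive cells of NFKO mice. The libraries also differed in sex: 2424 of 3003 WT cells had a Y-linked UMI and no Xist UMI, against 357 of 5292 cells labelled NFKO, so sex, pool and genotype cannot be told apart over the whole libraries.

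Tuft-like cells were found without using the 10 members. Cells of both libraries were clustered on other genes, and 1 of 24 clusters was named from 10 separate tuft markers, among them Dclk1, Avil, Sh2d6, Rgs13, Lrmp, Gfi1b, Fyb, Bmx and Vav1, and all 10 were higher there. It held 89 WT cells, 2.96% (2.39 to 3.63) of the library, and 175 cells labelled NFKO, 3.31% (2.84 to 3.82), a ratio of shares of 1.12 (0.860 to 1.46) whose interval spans 1. The WT tuft-like cells were shallower, with a median of 6098 UMIs against 14529. The share depended on which cells were kept. Among cells of at least 5000 UMIs the ratio was 1.5 (1.07 to 2.14, on 49 and 125 tuft-like cells), and with every deposited barcode it was 1.36 (1.09 to 1.72), both with intervals above 1, while with doublets kept it was 0.928 (0.711 to 1.22).

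Markers of other cell types were also counted in the tuft-like cluster, and whether they came from other cells was not tested. The 7 goblet markers, led by Tff3, summed to 3364 CPM in WT tuft-like cells and 8770 in those labelled NFKO, all 7 being detected in both. In enteroendocrine-like cells the same list stood at 2794 and 5067. The 8 Paneth markers summed to 2132 and 2767, the 8 enterocyte markers to 1603 and 1334, with Alpi at 0 in WT, and the 9 enteroendocrine markers to 75.7 and 303, with Neurog3, Scg3, Pcsk1n and Pax6 at 0 in WT. The 9 myeloid and mast cell markers had 0 UMIs in WT tuft-like cells and 2.14 CPM in those labelled NFKO, and the 6 stromal and endothelial markers had 0 in both. The 9 lymphocyte markers summed to 59.4 and 30.4 CPM with 2 detected genes in each library, mostly from Ptprc, the leukocyte antigen CD45, at 39 and 70 UMIs. Cd3e, Cd7, Cd8a, Ccl5, Cd79a and Ms4a1 were at 0 in both.

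All 10 members were at least 2-fold higher in tuft-like than in other cells of both libraries, a size that 9.17% of the 13484 genes tested reached. Genes were tested at 100 or more UMIs in all kept cells. Gnat3 (22 UMIs in other cells), Plcb2 (42), Il25 (7), Alox5 (61), Ptgs1 (57) and Chat (10) reached that only through tuft-like cells. For these the count is no test. The smallest ratios were those of Hpgds, at 105 (85.1 to 129) in WT and 52.2 (46.8 to 58.3) in NFKO-labelled cells. For the other 9 members the ratio lay between 695 for Gnat3 and 5369 for Ptgs1 in WT, and between 249 for Pou2f3 and 566 for Chat in the library labelled NFKO. The members were not equally frequent among the cells. In WT, Trpm5 was detected in 82 of 89 tuft-like cells (92.1%, 84.5 to 96.8), against 1 of 839 goblet-like cells (0.119%), where the median depth was 24257 UMIs. Gnat3 was detected in 15 of 89 WT tuft-like cells (16.9%, 9.75 to 26.3) and in 0 of 839 goblet-like cells, which allows a share of up to 0.358%, and its counts were concentrated: the 9 cells with most Gnat3 held 87.5% of its UMIs in WT, and the 18 with most held 80.4% in the library labelled NFKO. For Trpm5 the same numbers of cells held 31.1% and 31.3%. Gnat3 reached 18 UMIs in 1 WT cell, near the 27 of Trpm5, although most tuft-like cells showed none of it.

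**Figure D1:**
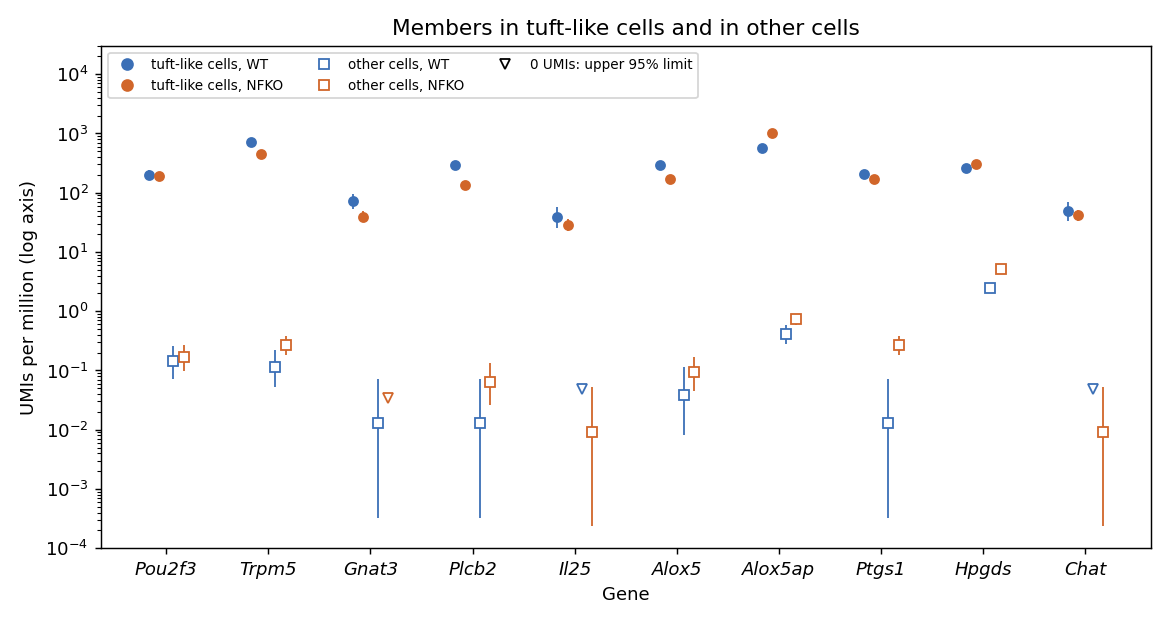
Levels of the 10 members in CPM (log axis) in tuft-like cells (filled circles) and in other cells without the 41 droplets rich in tuft markers (open squares), for WT (blue) and the library labelled NFKO (orange), with 95% Poisson intervals and triangles at the upper limit where no UMI was counted. Every member sits far above its level in other cells, and Hpgds has the highest level outside, 2.45 in WT and 5.21 in NFKO-labelled cells.

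Pou2f3, the lineage regulator, had 136 UMIs in WT tuft-like cells and 454 in those labelled NFKO, or 202 (169 to 239) and 195 (177 to 213) CPM. The ratio of the library labelled NFKO to WT was 0.964 (0.794 to 1.18), a similar level in both within counting error. That interval holds no spread between cells or mice. When tuft-like cells were called by 3 or more naming markers, the ratio was 1.54 (1.28 to 1.87). Pou2f3 was detected in 58 of 89 and 123 of 175 cells of the cluster.

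The taste cascade genes were all lower in the library labelled NFKO. Trpm5 had 492 and 1061 UMIs, or 730 (667 to 798) and 455 (428 to 483) CPM, a ratio of 0.622 (0.559 to 0.694). Plcb2 had 197 and 313 UMIs, or 292 (253 to 336) and 134 (120 to 150) CPM, a ratio of 0.459 (0.382 to 0.551) and the lowest of the 10. Gnat3 had 48 and 92 UMIs, or 71.3 (52.5 to 94.5) and 39.4 (31.8 to 48.3) CPM, a ratio of 0.553 (0.386 to 0.801).

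Il25, the cytokine gene, had 26 and 67 UMIs, or 38.6 (25.2 to 56.6) and 28.7 (22.2 to 36.5) CPM. Its ratio of 0.744 (0.466 to 1.22) had an interval that spans 1, and it was detected in 20 of 89 and 41 of 175 tuft-like cells. Chat, which makes acetylcholine, had 33 and 97 UMIs, or 49.0 (33.7 to 68.8) and 41.6 (33.7 to 50.7) CPM, with a ratio of 0.848 (0.566 to 1.30). These low counts leave a change of the size seen for Trpm5 within the interval of both genes.

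The eicosanoid genes lay on both sides of 1. Alox5, which makes the precursor of all leukotrienes, had 201 and 396 UMIs, or 298 (259 to 343) and 170 (153 to 187) CPM, a ratio of 0.569 (0.479 to 0.677). Its partner Alox5ap, which presents arachidonic acid to the enzyme, lay on the other side with 379 and 2363 UMIs, or 563 (507 to 622) and 1013 (972 to 1054) CPM, a ratio of 1.80 (1.61 to 2.01). Alox5ap was the only member past 1.5-fold in that direction, a size that 20.1% of all genes tested reached. Ptgs1, which makes prostaglandin H2, had 139 and 401 UMIs, or 206 (173 to 244) and 172 (155 to 190) CPM, a ratio of 0.833 (0.685 to 1.02). Hpgds, which turns prostaglandin H2 into prostaglandin D2, had 179 and 704 UMIs, or 266 (228 to 308) and 302 (280 to 325) CPM, a ratio of 1.14 (0.962 to 1.35). The intervals of both prostaglandin genes span 1.

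In all, 4 of the 10 members were at least 1.5-fold lower in tuft-like cells of the library labelled NFKO (Trpm5, Gnat3, Plcb2 and Alox5), where 19.5% of the 9060 genes with at least 20 UMIs in these cells were as low. The share of members at least 1.5-fold higher, 1 of 10, was below the share of all genes. The median log2 ratio was −0.35 over the 10 members, 0.05 over the 10 naming markers and −0.01 over all genes tested. Of the naming markers, 2 were past 1.5-fold lower, Sh2d6 at 0.653 and Vav1 at 0.666, and 0 were past it higher, with Lrmp at 1.38 and Rgs13 at 1.34. Foxo1 itself had 18 UMIs in WT tuft-like cells and 20 in those labelled NFKO, a ratio of 0.321 (0.161 to 0.643).

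**Figure D2:**
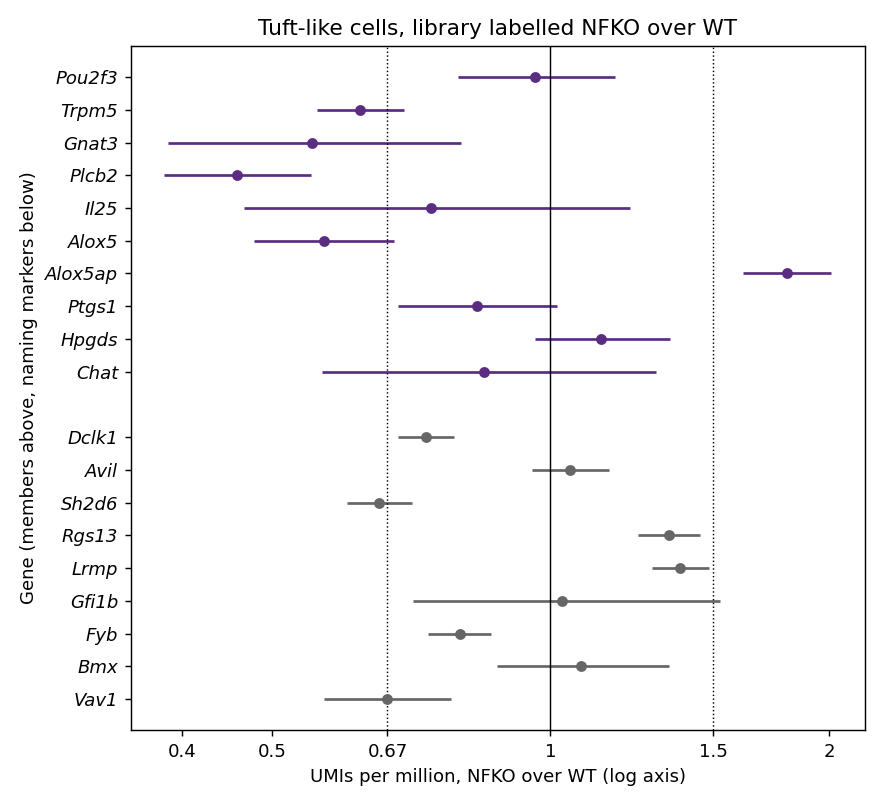
Ratio of CPM in tuft-like cells, library labelled NFKO over WT (log axis), for the 10 members (purple) and 9 of the 10 naming markers (grey), with exact 95% intervals, a solid line at 1 and dotted lines at 1.5-fold in each direction. Plcb2 is lowest at 0.459 and Alox5ap highest at 1.80, while Pou2f3 and the naming markers Gfi1b and Avil lie near 1.

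The ratios changed most with restriction to male-typed cells, the rule for tuft-like cells and the weight given to each cell. Only 62 of 89 WT and 11 of 175 NFKO-labelled tuft-like cells were male-typed, and among these the ratio was 0.843 (0.679 to 1.04) for Trpm5, 0.912 (0.650 to 1.26) for Alox5, 0.756 (0.362 to 1.46) for Gnat3, 0.635 (0.429 to 0.919) for Plcb2 and 2.12 (1.79 to 2.51) for Alox5ap. Among these cells Plcb2 and Alox5ap were past 1.5-fold and Trpm5, Alox5 and Gnat3 were not, where 40.5% of all genes were past that size in either direction. With 11 cells labelled NFKO, the interval of Gnat3 holds its ratio of 0.553 over all tuft-like cells. The part of sex in the difference was not tested. When a cell was called tuft-like by 3 or more naming markers in place of the cluster, 0 members were past 1.5-fold lower, with Plcb2 at 0.678, and 3 were past it higher, Alox5ap at 2.71, Hpgds at 1.73 and Pou2f3 at 1.54, and 31.0% of all genes were past it in either direction. That rule added 15 WT droplets from other clusters with 816883 UMIs, more than the 673569 of the 89 tuft-like cells, so that 54.8% of the WT total came from the added droplets, against 34.4% in the library labelled NFKO. When each tuft-like cell had equal weight in place of its UMIs, the ratio fell to 0.296 for Plcb2, 0.506 for Trpm5 and 0.464 for Alox5, all 3 below their counting intervals, and 55.0% of all genes were past 1.5-fold. With the cluster's own cells of 3 or more markers (89 and 160), or only its cells with goblet markers at up to 1% of UMIs (87 and 134), 5 members were past 1.5-fold, as were 39.2% and 40.3% of all genes. Within the goblet limit Plcb2 stood at 0.472, Trpm5 at 0.637, Alox5 at 0.586, Gnat3 at 0.575 and Alox5ap at 1.92.

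Tuft-like cells differed from each other in how many members they showed. Without correction for depth, a median of 6 of the 10 members was detected per cell in both libraries. Each cell was then thinned at random to 2000 UMIs, which left out 7 WT and 22 NFKO-labelled cells that were shallower. The median was then 3.5 members in 82 WT cells and 3 in 153 cells labelled NFKO, and 3 or more members were found in 60 (73.2%) and 79 (51.6%) cells. Cells with none of the 10 after thinning numbered 1 of 82 and 18 of 153. Without thinning, 11 tuft-like cells labelled NFKO and 0 WT cells had no member, and these 11 had a median of 1792 UMIs. Among thinned cells that had 3 or more naming markers at full depth, the shares with 3 or more members were 73.2% (62.2 to 82.4) and 53.0% (44.7 to 61.2).

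**Figure D3:**
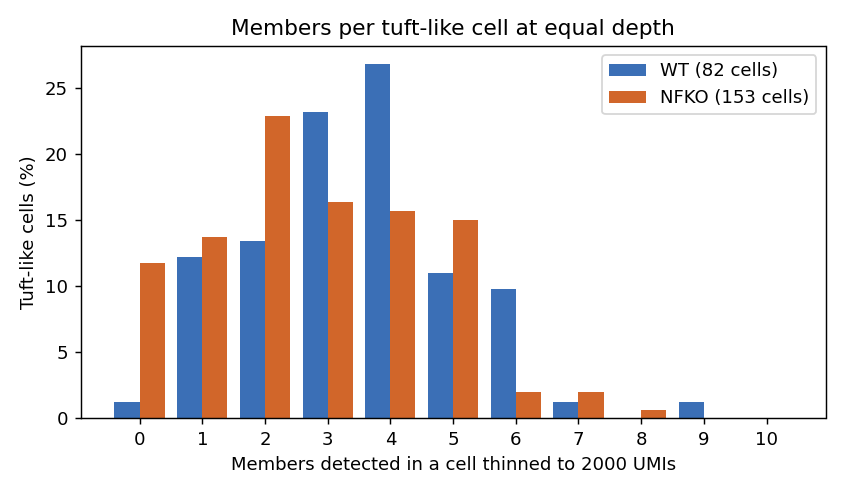
Share of tuft-like cells (%) by the number of the 10 members detected after thinning each cell to 2000 UMIs, for 82 WT cells (blue) and 153 cells labelled NFKO (orange). WT cells peak at 4 members and cells labelled NFKO at 2, with 11.8% of the latter at 0.

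The shares of thinned cells with a member lay on the same side as its level for some members and not for others. Trpm5 was detected in 75.6% (64.9 to 84.4) of WT and 52.3% (44.1 to 60.4) of NFKO-labelled cells, Plcb2 in 52.4% (41.1 to 63.6) and 19.6% (13.6 to 26.8), and Alox5 in 41.5% (30.7 to 52.9) and 26.1% (19.4 to 33.9). For Pou2f3 the shares were 32.9% and 32.0%, for Hpgds 37.8% and 39.9%, and for Alox5ap 57.3% (45.9 to 68.2) and 63.4% (55.2 to 71.0). Ptgs1 was detected in 23.2% (14.6 to 33.8) and 28.1% (21.1 to 35.9), the other way from its level, with overlapping intervals. On few cells, Chat was in 8 of 82 (9.76%, 4.31 to 18.3) and 4 of 153 (2.61%, 0.717 to 6.56), Gnat3 in 7 and 9, and Il25 in 8 and 11. Among cells with any Alox5ap at full depth the median was 4 UMIs in WT and 13 in NFKO-labelled cells, where cells were also deeper.

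Most thinned cells with Plcb2 or Alox5 also showed Trpm5. In thinned WT cells, Plcb2 was detected in 38 of 62 cells with Trpm5 (61.3%, 48.1 to 73.4) and 5 of 20 without (25%, 8.66 to 49.1), and in the library labelled NFKO in 25 of 80 (31.2%, 21.3 to 42.6) and 5 of 73 (6.85%, 2.26 to 15.3). Alox5 was detected in 31 of 62 and 3 of 20 (15%) WT cells, and in 32 of 80 and 8 of 73 (11%) cells labelled NFKO. Hpgds showed no such pattern, with 19 of 62 (30.6%) and 12 of 20 (60.0%) in WT and 33 of 80 (41.2%) and 28 of 73 (38.4%) in the library labelled NFKO. Nor did Pou2f3 in WT (30.6% and 40%), against 37.5% and 26.0% in the library labelled NFKO. Alox5ap was more frequent with Trpm5, at 59.7% and 50% in WT and 77.5% and 47.9% in the other library. So was Ptgs1, at 25.8% and 15%, and 38.8% and 16.4%. Gnat3, Il25 and Chat were found in few cells. Cells of 1 library are not replicates, and these shares describe the cells only.

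Outside the tuft-like cluster, most of the few counts of 8 members lay in droplets that also carried tuft markers. Of 8031 other cells, 41 (0.511%; 15 WT and 26 NFKO-labelled) had 3 or more of the 10 naming markers, and all 26 other cells with 3 or more members were among these 41. The 41 droplets had a median of 37107 UMIs against 17151 in other cells, and a median doublet score of 0.0691 against 0.0281. They came from many clusters, including 11 in the cluster led by the stem cell gene Olfm4 and 8 in the Paneth-like cluster led by Gm14851, and held 95.5% of the Gnat3 UMIs found outside tuft-like cells, 90.0% for Chat, 85.7% for Il25, 81.0% for Plcb2, 78.7% for Alox5, 77.4% for Trpm5 and 71.8% for Pou2f3. The share was lower for Alox5ap (59.2%) and Ptgs1 (47.4%), and 9.31% for Hpgds. The part of doublets in these droplets was not tested.

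**Figure D4:**
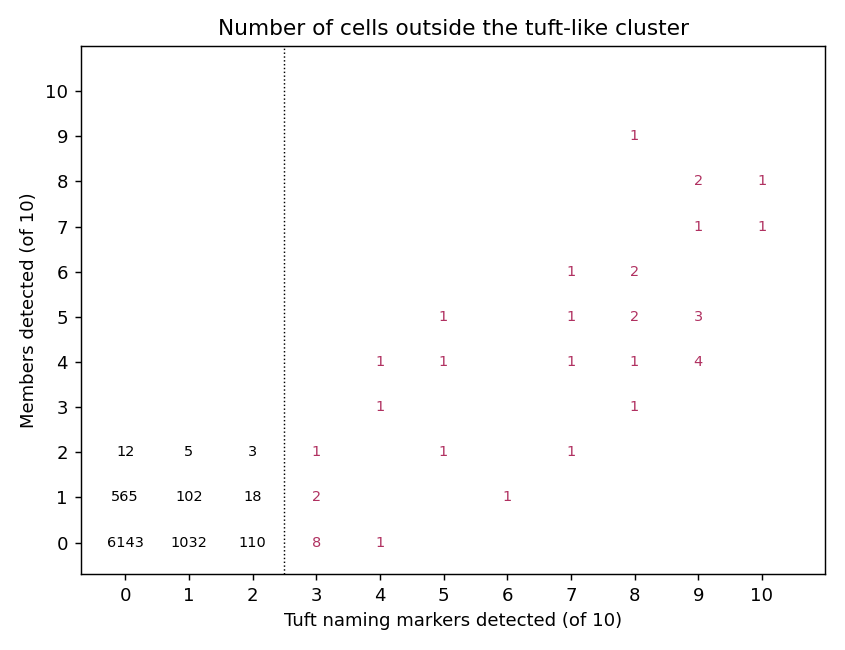
Number of cells outside the tuft-like cluster at each combination of tuft naming markers detected (horizontal axis, of 10) and members detected (vertical axis, of 10), both libraries together. All cells with 3 or more members lie to the right of the dotted line, among the 41 cells with at least 3 naming markers (red).

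Without the 41 droplets, 7990 other cells were left. In these, Gnat3, Il25 and Chat had 1 UMI each, Plcb2 had 8, Alox5 13, Pou2f3 29, Ptgs1 30 and Trpm5 38, nearly all as single UMIs in a cell. Il25 and Chat had 0 UMIs in the 2899 WT cells, which allows a share of cells with a UMI of up to 0.103%, and Gnat3 had 0 in the 5091 cells labelled NFKO, which allows up to 0.0589%. Alox5ap had 111 UMIs in 104 cells, of which 16 lay in 15 of 453 cells of the enteroendocrine-like cluster led by Tac1 (2.94 CPM, 1.68 to 4.77) and 13 in 13 of 297 cells of that led by Cartpt (4.74 CPM, 2.52 to 8.10). In the goblet-like cluster led by Mptx1 its level was 0.439 CPM (0.219 to 0.785), below both intervals, in deeper cells (median 28787 UMIs against 12616 and 9271). Over all cells of each cluster, marker-rich droplets included, the naming markers summed to 28.4 and 30.3 CPM in the WT and NFKO-labelled cells of the Tac1 cluster, 0 and 13.2 in the Cartpt cluster and 7.01 and 12.6 in the Mptx1 cluster. The Tac1 cluster held 1 such droplet in each library and the Mptx1 cluster 3 labelled NFKO, so these sums are not those of the cells left. Whether the single Alox5ap UMIs came from RNA of tuft cells was not tested. Of the 30 Ptgs1 UMIs, 16 lay in the goblet-like cluster led by Ido1, in 15 of 881 cells (1.59 CPM, 0.908 to 2.58). All 16 were in the library labelled NFKO, which held 795 of these cells against 86 in WT. Over all cells left, Ptgs1 had 1 WT UMI and 29 labelled NFKO (ratio 20.8, 3.45 to 849). Hpgds (2.13, 1.80 to 2.52), Trpm5 (2.31, 1.06 to 5.55) and Alox5ap (1.77, 1.16 to 2.76) were also higher there. The intervals of Pou2f3 (1.17), Plcb2 (5.02) and Alox5 (2.39) spanned 1. The part of the mix of clusters was not tested.

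Hpgds was the exception among the members. Only 51.6% of its UMIs in kept cells lay in the tuft-like cluster, against 85.1% to 93% for the other 9. Of the 750 UMIs left outside, 653 (87.1%) were in enteroendocrine-like cells. It was detected in 107 of 899 WT enteroendocrine-like cells (11.9%, 9.86 to 14.2) and 312 of 1908 labelled NFKO (16.4%, 14.7 to 18.1), at median depths of 12451 and 15392.5 UMIs, whereas goblet-like cells, at the larger depths of 24257 and 21630 UMIs, showed it in 1.19% and 0.832%. After thinning to 2000 UMIs the shares were 2.57% (1.64 to 3.83) and 4.06% (3.21 to 5.06) in enteroendocrine-like cells and 0% and 0.197% in goblet-like cells.

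Among enteroendocrine-like clusters, Hpgds was highest in the cells marked by neurotensin and peptide YY and lowest in those led by Tac1 and by the progenitor genes Ooep and Neurog3. In the cluster led by Nts it stood at 35.8 CPM (11.6 to 83.5) in WT and 92.0 (76.3 to 110) in the library labelled NFKO. In that led by Pyy it stood at 41.4 (24.9 to 64.7) and 51.5 (41.3 to 63.6), in that led by Cartpt and Tph1 at 25.2 (10.9 to 49.6) and 28.0 (21.8 to 35.5), and in that led by Gcg at 22.8 (17.3 to 29.4) and 23.8 (18.8 to 29.7). In the library labelled NFKO the clusters led by Gip (13.8), Pzp and Cck (11.6) and Sst (11.3) followed, whereas in WT the Pzp cluster, at 30.1 on 6 UMIs, was above those of Cartpt and Gcg, with Gip at 9.44 and Sst at 6.49. Those led by Ooep and Neurog3 (3.60 and 2.48) and by Tac1 (2.98 and 0.289) were lowest. In the library labelled NFKO, where more cells were counted, the intervals of the Nts, Pyy and Cartpt clusters did not overlap, while those of Cartpt and Gcg did, as did those of Gip, Pzp and Sst. In WT the intervals of Pyy, Nts, Pzp, Cartpt and Gcg overlapped, and those of Gcg and Gip did not. A cluster led by Nnat, with 7 of 9 enteroendocrine markers higher but left unnamed for its median of 3478 UMIs, held Hpgds at 21.2 (11 to 37.1) in WT and 23.8 (9.57 to 49.0) in the library labelled NFKO.

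**Figure D5:**
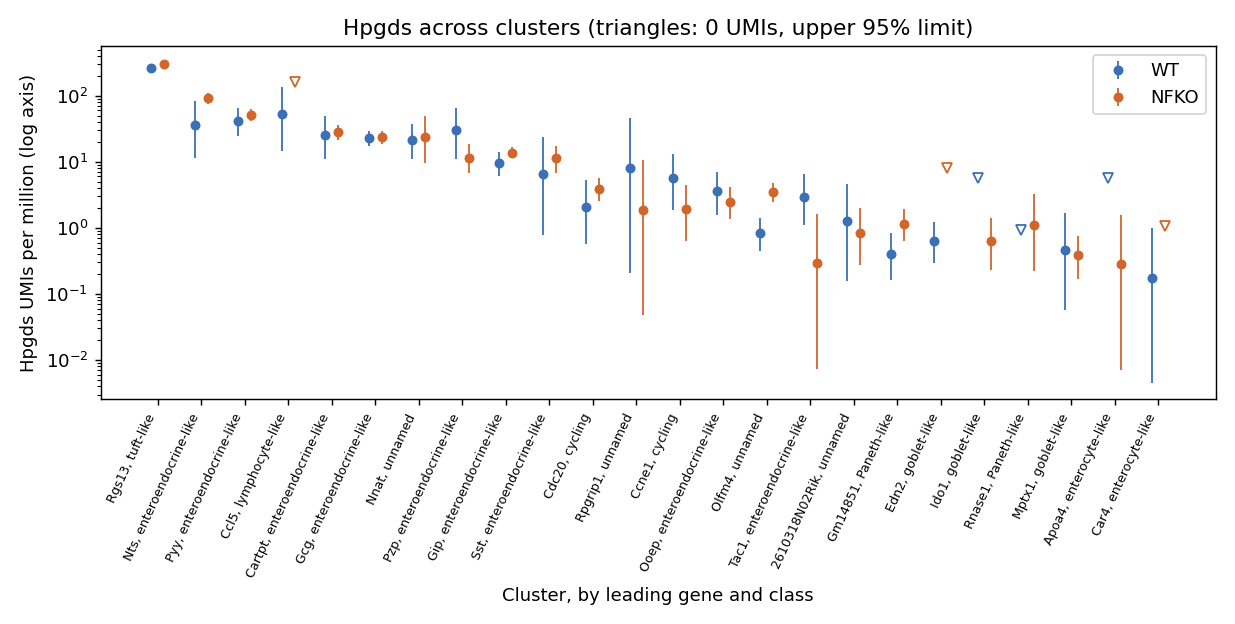
Hpgds level in CPM (log axis) in each of the 24 clusters, ordered by the pooled level, for WT (blue) and the library labelled NFKO (orange), with exact 95% Poisson intervals and triangles at the upper limit where 0 UMIs were counted. The tuft-like cluster is highest, followed by the enteroendocrine-like clusters led by Nts and Pyy, and the enterocyte-like clusters led by Car4 and Apoa4 are lowest.

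Over all enteroendocrine-like cells Hpgds was 12.7 CPM (10.6 to 15) in WT and 17.7 (16.2 to 19.3) in NFKO-labelled cells, which is 1.40 times the WT level (1.16 to 1.70). Within clusters the ratio was 2.57 (1.07 to 8.07) for Nts, on 5 WT UMIs and with WT cells at a median of 3572 UMIs against 16636, and 1.24 (0.751 to 2.16) for Pyy, 1.11 (0.534 to 2.68) for Cartpt, 1.05 (0.736 to 1.49) for Gcg and 1.46 (0.937 to 2.35) for Gip, where each interval spans 1. It was 1.73 (0.421 to 15.3) for Sst, and lay on the other side for Ooep at 0.688 (0.269 to 1.89), Pzp at 0.385 (0.146 to 1.18) and Tac1 at 0.0968 (0.00210 to 0.798), the last on 6 WT UMIs and 1 UMI labelled NFKO. The mix of enteroendocrine-like clusters differed between the libraries, for example 33 and 264 Cartpt cells and 34 and 86 Pyy cells. Among male-typed enteroendocrine-like cells the level was 12.9 (10.7 to 15.4) in WT and 14.2 (9.41 to 20.5) in the library labelled NFKO. A cluster of 20 lymphocyte-like cells led by Ccl5 held 4 Hpgds UMIs and 5 Alox5ap UMIs, all in its 16 WT cells. On these few counts the WT levels were 53.6 CPM for Hpgds and 67.0 for Alox5ap, for both the highest of any WT cluster outside the tuft-like one.

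Promoter sequences from RefSeq (GRCm38.p6, 250 bases before to 50 after the gene start) were matched for 7 of the 10 members, Ptgs1, Plcb2, Gnat3, Hpgds, Alox5, Trpm5 and Chat. The octamer ATGCAAAT, the consensus bound by POU-domain factors, was searched on both strands. It was found in 1 of the 7, that of Hpgds, and in 532 of 27025 genes with a promoter (1.97%). In all, 3 stretches are shown, each on the minus strand and written 5′ to 3′: the octamer in capitals with 11 bases on each side for Hpgds, the member with most counts outside tuft-like cells, and, without the octamer, the 250 bases before the start of Trpm5 and of Plcb2, the 2 taste genes detected together.
Hpgds, chr6:65144886-65144915: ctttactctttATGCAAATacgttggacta
Trpm5, chr7:143094643-143094892: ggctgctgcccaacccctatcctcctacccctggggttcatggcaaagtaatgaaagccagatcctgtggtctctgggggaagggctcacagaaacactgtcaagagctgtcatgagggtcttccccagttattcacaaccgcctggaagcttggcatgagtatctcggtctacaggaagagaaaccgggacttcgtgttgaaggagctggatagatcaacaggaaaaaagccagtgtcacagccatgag
Plcb2, chr2:118728439-118728688: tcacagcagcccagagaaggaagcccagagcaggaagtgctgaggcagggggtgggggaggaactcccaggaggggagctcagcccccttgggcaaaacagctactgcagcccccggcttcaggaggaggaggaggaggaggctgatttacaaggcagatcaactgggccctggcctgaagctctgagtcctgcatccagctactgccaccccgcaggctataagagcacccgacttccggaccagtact

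The Hpgds octamer lies 174 bases before the RefSeq start, but 4 bases inside the first exon, a UTR, of the GENCODE transcript Hpgds-201, whose start is at 65144908. In GENCODE M21 (GRCm38), the members lie on chromosome 9 (Pou2f3, 43123939 to 43210369), 7 (Trpm5, 143069153 to 143094642), 5 (Gnat3, 17962549 to 18019834, and Alox5ap, 149264767 to 149288153), 2 (Plcb2, 118707517 to 118728438, and Ptgs1, 36230426 to 36252272), 14 (Il25, 54932695 to 54935837, and Chat, 32408203 to 32465989) and 6 (Alox5, 116410077 to 116461178, and Hpgds, 65117293 to 65144908). They are protein-coding and lie on several chromosomes, and no 2 of them are neighbours.

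Other genes of the taste pathway were counted from a list of 23, of which 12 had at least 100 UMIs in kept cells. Of these, 5 were at least 2-fold higher in tuft-like cells of both libraries: Gng13, the gamma subunit that pairs with gustducin, Itpr2, a receptor that releases stored calcium, Sucnr1, the succinate receptor, Ffar3, a short-chain fatty acid receptor, and the sweet and umami co-receptor Tas1r3. That size was reached by 9.17% of all genes tested. The bitter receptors Tas2r108, Tas2r131 and Tas2r143 had 0 UMIs in tuft-like cells, and Tas2r138 had 1. Sucnr1 was almost confined to tuft-like cells, with 62 and 83 UMIs there and 1 in the other cells of each library. It therefore reached the 100 UMIs only through tuft-like cells, as did Il17rb, Gfi1b, Hmx2, Hmx3 and Siglecf of the lists below. Of 10 genes with counts enough to compare the libraries, 4 were at least 1.5-fold lower in the one labelled NFKO: Sucnr1 at 92.0 and 35.6 CPM (ratio 0.386, 0.275 to 0.546), Gnb3, a beta subunit, at 20.8 and 3.43 (0.165, 0.0599 to 0.421), Itpr2 at 491 and 291 (0.591, 0.518 to 0.676) and Itpr3 at 53.4 and 33.4 (0.625, 0.416 to 0.956). Over all genes compared, 19.5% were as low and 20.1% were past 1.5-fold higher. None of the 10 was past it higher. Gng13 stood at 364 and 539 (1.48, 1.29 to 1.71) and Ffar3 at 104 and 127 (1.22, 0.938 to 1.61). Gnb1 (0.963), Trpm4 (0.972) and Plcb3 (1.01), which other cell types also express, lay near 1.

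In a list of 35 other eicosanoid genes, 19 had at least 100 UMIs and 2 of these were higher in tuft-like cells: Ltc4s, leukotriene C4 synthase, and Pla2g4a, the phospholipase that frees arachidonic acid. For 19 genes this count is near the share of all genes tested, 9.17%. Ltc4s stood at 462 and 684 CPM in the tuft-like cells (ratio 1.48, 1.31 to 1.68) and at 0.897 and 2.41 in other cells. Pla2g4a stood at 154 and 219 (1.42, 1.15 to 1.77). Lta4h, which makes leukotriene B4, was not higher in tuft-like cells (31.2 and 36.9, against 38.8 and 37.9 in other cells). Ptgs2, the inducible cyclooxygenase, was under the 100 UMIs, with 9 in each library's tuft-like cells, or 13.4 and 3.86 CPM (0.289, 0.102 to 0.821). Its level in other cells was 0.0384 and 0.358, and tuft-like was its highest class. The prostaglandin E synthase gene Ptges had 0 UMIs in tuft-like cells, while Ptges2 (16.3 and 15) and Ptges3 (120 and 186) were at levels close to those of other cells. Of 11 genes compared between libraries, 2 were past 1.5-fold higher in the one labelled NFKO, Ptges3 (1.54, 1.21 to 1.98) and Mgst2 (1.59, 1.20 to 2.13), and 2 lower on few counts, Ptger4 (0.513, 0.214 to 1.32) and Abcc1 (0.536, 0.199 to 1.59). These counts are near the shares of all genes compared, 20.1% higher and 19.5% lower. Mgst2 was lower in tuft-like cells (87.6 and 139 CPM) than in other cells (207 and 274). Hpgd, which degrades prostaglandins, was at 38.6 and 41.6 (1.08, 0.692 to 1.73).

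Receptors for these lipids were counted in other cells. The prostaglandin D2 receptor Ptgdr had 411 UMIs in the goblet-like cluster led by Ido1 (40.8 CPM) and 2 in tuft-like cells. The prostaglandin E2 receptor Ptger3 had 773 UMIs in the enteroendocrine-like cluster led by Gip (73.2 CPM) and 1 in tuft-like cells, and Ptger4 stood at 71.8 CPM in the Ido1 cluster and 60.8 in the goblet-like cluster led by Edn2. The leukotriene receptors Cysltr1, Cysltr2 and Oxgr1 had 0 UMIs in tuft-like cells and 5, 3 and 0 in all other kept cells. Ltb4r1, a leukotriene B4 receptor, had 1 UMI in tuft-like cells and 45 and 118 in the other cells of the WT and NFKO-labelled libraries, and was highest in enterocyte-like cells (6.44 CPM).

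Of 8 cholinergic genes other than Chat, 6 had at least 100 UMIs and 0 of these were 2-fold higher in tuft-like cells, beside 9.17% of all genes tested. The vesicular acetylcholine transporter Slc18a3 was below that minimum but had 5 UMIs in tuft-like cells, its highest class (1.66 CPM), and 3 in all others. The choline transporter Slc5a7 had 0 and 1. The choline transporter-like genes Slc44a1 (56.4 and 37.7) and Slc44a4 (37.1 and 27.0) were at levels close to those of other cells. Between libraries 0 of the 2 compared were past 1.5-fold, where 39.6% of all genes were. The muscarinic receptor Chrm1 was highest in the goblet-like cluster led by Mptx1 (22.3 CPM) and Chrm3 in that led by Ido1 (28.6).

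The genes around Il25 included 3 of 5 tested that were higher in tuft-like cells, Il17rb, a subunit of its receptor, Il13ra1 and Il4ra, subunits of the interleukin-4 and interleukin-13 receptors. Of all genes tested, 9.17% were at least 2-fold higher there. Between libraries, 19.5% were at least 1.5-fold lower in the one labelled NFKO. Il17rb stood at 108 and 62.6 CPM (ratio 0.577, 0.433 to 0.775) and Il4ra at 54.9 and 36.0 (0.655, 0.440 to 0.993), the 2 of 5 past 1.5-fold lower, while Il13ra1 stood at 411 and 494 (1.20, 1.05 to 1.38). Il17ra was at 14.8 and 10.3, and the cytokine gene Tslp at 8.91 and 12. Il13 had 0 UMIs in every class and Il4 1.

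Among transcription factors of tuft cells other than Pou2f3, 7 of 9 tested were higher in tuft-like cells than in the other cells together in both libraries: Gfi1b, Spib, Sox9, Sox4, Hmx2, Hmx3 and Ascl2. Of all genes tested, 9.17% were. Sox4 was higher still in some enteroendocrine-like clusters, at 1152 CPM in that led by Ooep and 904 in that led by Cartpt, against 468 in the tuft-like cluster, libraries pooled. None was past 1.5-fold lower in the library labelled NFKO, and 1 was past it higher, Ascl2, a stem cell gene, at 32.7 and 62.6 CPM (ratio 1.92, 1.22 to 3.15). Over all genes compared, 19.5% were past 1.5-fold lower and 20.1% higher. Spib stood at 393 and 336 (0.853, 0.741 to 0.984) and Sox4 at 592 and 432 (0.729, 0.649 to 0.821), lower by less than that size with intervals below 1. Hmx2 at 203 and 277 (1.36, 1.13 to 1.65) and Hmx3 at 150 and 194 (1.29, 1.04 to 1.62) were higher with intervals above 1. The intervals of Sox9 at 477 and 424 (0.890, 0.784 to 1.01) and Gfi1b at 54.9 and 56.6 (1.03, 0.710 to 1.53) span 1. Atoh1, the regulator of secretory cells (22.3 and 16.3), was lower in tuft-like than in other cells, and the widely expressed octamer-binding factor Pou2f1 (26.7 and 25.7) was not 2-fold higher in them.

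Panels for the neuronal-type (tuft-1) and immune-type (tuft-2) tuft cells each held 6 genes. Of all genes tested, 9.17% were at least 2-fold higher in tuft-like cells of both libraries. Between libraries, 20.1% were at least 1.5-fold higher in the one labelled NFKO and 19.5% lower. All 6 tuft-1 genes were higher in tuft-like cells than in the other cells together in both libraries, and 0 of the 6 were past 1.5-fold between libraries (Nradd 1.01, Gng13 1.48, Nrep 1.16, Rgs2 0.717, Krt18 0.876 and Cd24a 0.865). Single clusters could still be higher. Rgs2 stood at 440 CPM in the tuft-like cluster, libraries pooled, against 1050 in the Pzp and 756 in the Cartpt enteroendocrine-like clusters. Of the tuft-2 genes, 5 of 5 tested were higher in tuft-like cells, and 2 of 6 were past 1.5-fold lower in the library labelled NFKO: Ptprc with 39 and 70 UMIs (ratio 0.518, 0.345 to 0.787) and Siglecf at 292 and 154 CPM (0.527, 0.442 to 0.631). Irf7 (0.673), Rac2 (0.942), Ffar3 (1.22) and Tslp (1.35) were not past it. Irf7 was at 161 CPM in the tuft-like cluster, libraries pooled, against 225 in the Ido1 and 217 in the Apoa4 cluster. Ptprc and Rac2 were highest in the lymphocyte-like cluster. With 1 library per group, whether the panels differ from each other was not tested.

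Across the 24 clusters of each library (48 points), the genes most like the mean profile of the members were Gfi1b (Pearson r = 0.984), Itprid1 (0.983), Ackr4 (0.982), Ly6g6f (0.977) and Ahnak2 (0.976), computed on log2 of CPM plus 1. Against the mean of the other members, r was 0.502 for Hpgds, 0.872 for Alox5ap and 0.940 to 0.976 for the other 8. The points share libraries and depth and the tuft-like cluster dominates each r, so these values describe the profiles and carry no test.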

How the data were processed

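The deposited values are raw counts of UMIs per gene and barcode, which the authors made with the 10x Genomics 3′ kit; the submitters' processing notes name Cell Ranger 5.0.1 and mm10. The 5051 WT and 7540 NFKO barcodes held 90002878 and 124300388 UMIs. Barcodes under 500 genes or 1000 UMIs, or over 25% mitochondrial UMIs, were left out, and doublets were taken as the highest Scrublet scores (scanpy 1.11.5) at 0.8% per 1000 barcodes, 126 and 340. Cells were clustered with Seurat 5.3.0 (2000 variable genes, 30 components, resolution 0.8) without the 10 members and 10 other genes (Foxo1, insulin and amylin genes, sex-linked genes). A cluster took the class with the largest share of its markers at least 2-fold higher and in 10% of its cells, with 3 or more such markers, and was called cycling only where no other class had them. It stayed unnamed where its median UMI count was more than 3 times below that of all kept cells with no marker of the class among its 10 leading genes (for cycling, at that depth in any case), or where stem and cycling markers were both higher. A cluster where no class had 3 or more such markers also stayed unnamed. In all, 4 of 24 clusters were left unnamed. Levels are summed UMIs per 1000000 (CPM). Interval code was tested on simulated Poisson counts, which the intervals also assume, so spread between cells was not covered. In that simulation 16.0% of genes without a set change were past 1.5-fold. Text names every member and each listed pathway gene at 10 or more CPM in tuft-like cells. Members and lists were chosen with earlier results of these data known; other genes named were chosen after their values were seen. Positions are from GENCODE M21. The values of 1 naming marker are not reported here.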

Additional observations from a re-analysis of the deposited data

How the results depend on the processing

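Direction of the 5 members past 1.5-fold was kept under every alternative run, with ranges of 0.506 to 0.948 for Trpm5, 0.513 to 0.809 for Gnat3, 0.296 to 0.678 for Plcb2, 0.464 to 0.912 for Alox5 and 1.73 to 2.71 for Alox5ap. The alternatives share most of their cells. When tuft-like cells were called by marker count, the intervals of Trpm5 (0.948, 0.854 to 1.05), Alox5 (0.886, 0.750 to 1.05) and Gnat3 (0.809, 0.578 to 1.14) spanned 1, as they did among male-typed cells. Of 110 recomputed member ratios, 90 stayed within the counting interval and 20 left it; 3 other settings, resolutions 0.4 and 1.6 and another seed, gave the same tuft-like cells and so could not move a ratio. The number of members past 1.5-fold, 5 beside 39.6% of all genes, fell to 3 when tuft-like cells were called by marker count (31.0% of all genes) and to 3 among male-typed cells (40.5%), where Il25 was at 0.115 on 11 cells labelled NFKO. It was 4 among cells of at least 5000 UMIs (34.8%) and 6 under the stricter filter of 1000 genes, 2000 UMIs and 15% mitochondrial UMIs (33.8%) and with doublets kept (39.8%). The ratio of tuft-like shares, 1.12, was 1.62 (1.16 to 2.29) under the stricter filter, 1.5 (1.07 to 2.14) among cells of at least 5000 UMIs and 1.36 (1.09 to 1.72) with every barcode, and below 1 with doublets kept (0.928, 0.711 to 1.22) and when clustered with the members (0.903, 0.687 to 1.19). Within the goblet limit the WT share, 2.90%, was also above that of the library labelled NFKO, 2.53%. The median number of members per cell, 6 in both libraries, was 3.5 and 3 after thinning, since fewer UMIs were read. Thinning, the 5000 UMI minimum, the marker requirement, the goblet limit and the removal of marker-rich droplets were chosen after seeing the data. No paired analysis was possible because each group has 1 library. Depth limits Il25, Chat and Gnat3, with 93, 130 and 140 UMIs in tuft-like cells.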
